A study of Mus musculus with 3 samples.

Results

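The cytosolic ribosomal protein genes are described here by the peaks of 2 transcription factors at them, ATF4 and CEBPG, both of the basic leucine zipper (bZIP) class. They were chosen by symbol: protein-coding RefSeq genes named Rpl or Rps followed by a digit, plus Rplp0, Rplp1, Rplp2 and Rpsa, without the Rps6k kinase genes, Rps19bp1, names with -ps and the tissue paralogues Rpl3l, Rpl10l and Rpl39l. The rule found 85 genes of 21887 nuclear protein-coding genes, 34 of the small subunit and 51 of the large subunit. The rule itself uses symbols alone and no measured value. Chromatin immunoprecipitation with sequencing (ChIP-seq) was done on wild-type C57BL/6 mouse embryonic fibroblasts, primary cells isolated at E13.5. All libraries came from cells that spent 24 hours in medium after plating and 3 hours without amino acids (amino acid deprivation, AAD), so no fed control stands beside them. There was 1 library with an antiserum to the C terminus of CEBPG and 1 with the ATF4 antibody C-20, and a GFP antibody library was not analysed here. Peak lists carry no expression level, so the labelled cell type could not be checked against marker genes.

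Each ribosome joins a small subunit, which reads the messenger RNA, to a large subunit, which forms the peptide bonds. The genes of the ribosomal proteins are short, expressed in every cell and kept in step, and many of their messages begin with a terminal oligopyrimidine (TOP) tract through which mTORC1 controls their translation when nutrients are scarce. ATF4 is translated when amino acids run out and activates genes for amino acid synthesis, uptake and transfer RNA charging. CEBPG is a C/EBP family protein that lacks a strong activation domain and pairs with ATF4.

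Of the 20 CEBPG peaks found at these genes, 2 lay on promoter windows with a listed sequence, those of Rpl9 and Rpl10a. Their sequences are shown because they are the peaks at these genes whose bases can be read. The Rpl9 peak (chr5:65391319-65391493, 175 bp) spanned the space between Rpl9, which encodes a large-subunit protein, and Lias, the gene of lipoic acid synthetase on the other strand. The whole peak lies in the Lias promoter window, given 5′ to 3′ on the plus strand with the bases under the peak in capitals (RefSeq, GRCm38.p6, chr5:65391247-65391546).
Lias and Rpl9: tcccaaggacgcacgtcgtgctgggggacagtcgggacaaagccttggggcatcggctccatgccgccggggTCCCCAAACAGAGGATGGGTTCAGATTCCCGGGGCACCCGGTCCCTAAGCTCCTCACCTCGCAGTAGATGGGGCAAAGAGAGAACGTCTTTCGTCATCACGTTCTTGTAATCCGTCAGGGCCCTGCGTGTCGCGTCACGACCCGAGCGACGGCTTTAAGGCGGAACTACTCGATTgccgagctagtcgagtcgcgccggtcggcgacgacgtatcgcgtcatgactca
The Rpl10a peak (chr17:28328165-28328358, 194 bp) covered the first 138 bases of the window at the first listed start of Rpl10a. This gene encodes the protein of the L1 stalk. The window is given with the bases under the peak in capitals (RefSeq, GRCm38.p6, chr17:28328221-28328520, plus strand).
Rpl10a: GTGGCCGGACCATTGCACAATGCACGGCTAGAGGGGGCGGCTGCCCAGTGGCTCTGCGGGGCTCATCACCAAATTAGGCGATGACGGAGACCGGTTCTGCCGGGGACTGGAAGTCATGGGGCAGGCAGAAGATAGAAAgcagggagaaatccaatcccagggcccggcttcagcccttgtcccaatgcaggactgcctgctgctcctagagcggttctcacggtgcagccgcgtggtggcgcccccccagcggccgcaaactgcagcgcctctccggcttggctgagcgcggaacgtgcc
On the Rpl9 strand TGACG, the core of the cyclic AMP response element, occurred 3 times under the peak, and 2 of the 3 began 24 and 4 bases before the listed Rpl9 start. Under the Rpl10a peak, TTGCACAA, a match to the loose C/EBP pattern TTGCNNAA, began at base 13 of the window. That is 238 bases before the first of 2 listed Rpl10a starts. TGACG occurred 1 time. The window of the second start (chr17:28328565) had 44 bases under the same peak and is not shown. Neither window shown held the ATF4-C/EBP composite pattern TGATGNAA on either strand. A match describes letters and is not a measured site.

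CEBPG peaks were present at 19 of the 85 genes (22.4%, 95% Wilson interval 14.8 to 32.29%), counting any peak that overlapped the gene span or the 5 kb on either side. They lay at 11 of 51 large-subunit genes (21.6%, 12.49 to 34.63%) and 8 of 34 small-subunit genes (23.5%, 12.44 to 40%), so the shares of the subunits were close. Over all protein-coding genes the share was 29.9%, higher than among the ribosomal protein genes. Those genes are longer, with a median span of 17170 bp against 3175 bp. Among the 10756 protein-coding genes whose spans lie in the range of the ribosomal protein genes, from 374 bp (Rps27rt) to 16779 bp (Rps23rg1), the share was 13.6%, lower than among the ribosomal protein genes. The median span of this set was 5587 bp, still above 3175 bp, so length was not equalised. With the middle of each gene left out, and only 5 kb on either side of each end counted, the share over all genes was 16.5%, against the same 19 of 85. The direction of this difference thus turned with the genes taken as background and with the window counted. Per length of window, CEBPG peaks numbered 1.72 per 100 kb at ribosomal protein genes (20 peaks in 1161 kb, exact Poisson interval 1.05 to 2.66), 0.945 at genes of the same span range and 1.04 at all genes. With 1 library per antibody there is no replicate error. All intervals here cover counting error only, and no comparison of shares was tested. The Poisson interval takes the 20 peaks as independent, although both Rpl13a peaks lay side by side.

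**Figure D1:**
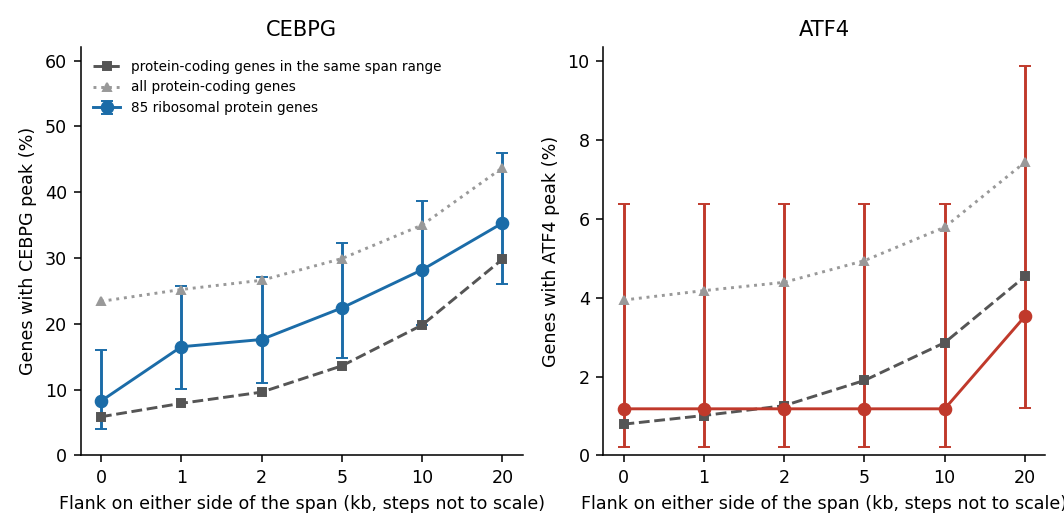
Share of genes with a CEBPG peak (left) or an ATF4 peak (right) in percent, against the flank added on either side of the gene span in kb. Circles are the 85 ribosomal protein genes with 95% Wilson intervals, squares the genes of the same span range and triangles all protein-coding genes. For CEBPG the ribosomal protein genes lie between both backgrounds at every flank drawn.

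The centres of 11 of the 20 CEBPG peaks were within 1 kb of a gene end. Counted by genes, 11 of 85 ribosomal protein genes had a peak that close (12.9%, 7.382 to 21.7%), against 5.56% of all protein-coding genes. Within 1 kb of a listed gene start it was 8 of the 65 ribosomal protein genes with such a start (12.3%, 6.37 to 22.45%), against 4.37% of 17492 genes. Of these 8 peaks, 4 were centred upstream of the start and 4 downstream. Centres of 7 of the 20 peaks lay inside the gene span and 13 outside it. Peaks were narrow, from 94 to 399 bp, with a median of 133 bp against 131 bp for the whole CEBPG list.

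Most of these peaks were weak, as were most CEBPG peaks near any protein-coding gene. Each peak carries a score given by the authors, which starts at 40 and ranks peaks within its own list. At ribosomal protein genes the scores ran from 40.6 to 396.05, with a median of 48.67, against 47.83 for the 12249 CEBPG peaks near any protein-coding gene. Scores under 50 made up 11 of the 20 (55.0%, against 57.9% near all genes), and 4 (20%, against 13.9%) reached 100. Counted by genes, 4 of 85 carried a peak of 100 or more (4.71%), against 7.24% of all protein-coding genes and 2.96% of those in the same span range.

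**Figure D2:**
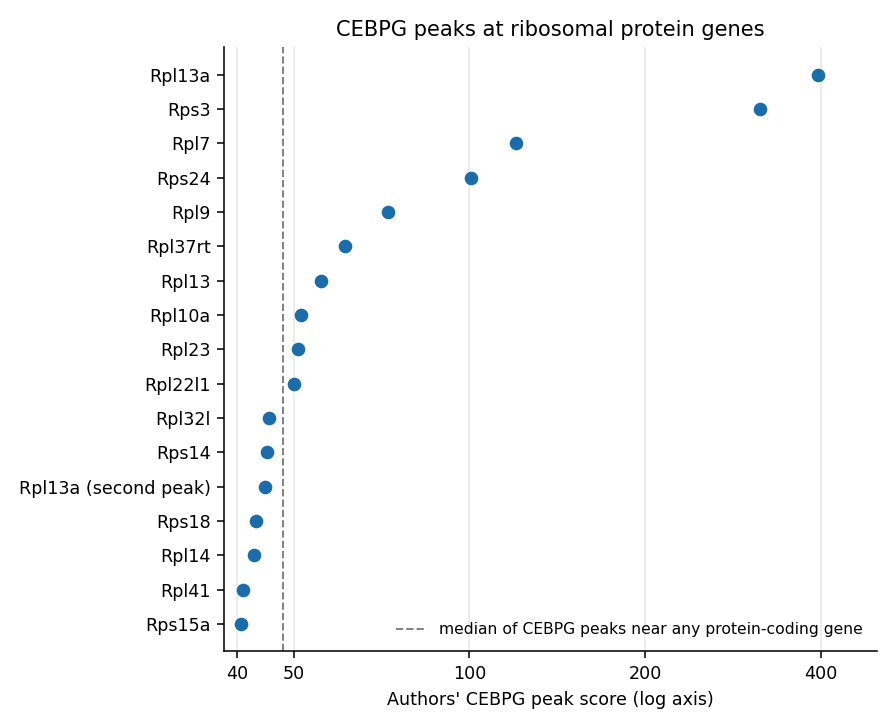
Scores of 17 CEBPG peaks at 16 ribosomal protein genes, on a log axis, with the gene named at the left. The dashed line is the median of CEBPG peaks near any protein-coding gene (47.83), and 2 peaks, at Rpl13a and Rps3, stand above 300.

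Among large-subunit genes, the highest score was at Rpl13a, whose protein also silences inflammatory messages when it leaves the ribosome. Its peak (chr7:45129507-45129785, score 396.05) was centred 901 bp upstream of the listed start and ranked 846 among 25419 CEBPG peaks. A second and weaker peak (chr7:45129799-45129934, score 44.55) was centred 1121 bp upstream, directly beside the first. Rpl13a was thus the 1 ribosomal protein gene with more than 1 CEBPG peak. Whether these are separate sites was not tested. Flt3l, a cytokine gene, lay 1537 bp from the stronger peak. Rpl7 had a peak of 120.2 (chr1:16104638-16104756), centred 264 bp beyond the higher-coordinate end of the gene. Its strand is not listed, so whether that end is the start was not determined. Rdh10, a retinol dehydrogenase gene, lay 1185 bp away on the other side.

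Of the remaining large-subunit peaks, Rpl9 had a score of 72.6 with the centre 25 bp downstream of its start, 91 bp from Lias. The Rpl10a peak scored 51.5 and was centred 210 bp upstream of its nearest listed start. Rpl23, whose protein can bind and restrain Mdm2, had a peak of 50.82 centred 953 bp upstream, with no other protein-coding gene within 5 kb. Rpl13 had one of 55.63, 2196 bp upstream and 2394 bp from Spg7, a mitochondrial protease gene. Scores close to the lowest in the list were at Rpl14 (42.7, 434 bp downstream of the start) and Rpl41 (40.91, 390 bp downstream). Rpl41 encodes a very small, highly basic protein.

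Copies and paralogues carried 3 of the large-subunit calls. Rpl37rt, a copy of Rpl37 by its symbol, had a peak of 61.21 inside the span, 5414 bp from the start. Rpl22l1, the paralogue of Rpl22, had a peak of 49.95 that was 4683 bp upstream and closer to Eif5a2 (1979 bp), within a long noncoding RNA gene, Gm32950. Rpl32l had a peak of 45.25, 367 bp upstream and inside the span of Map7, a microtubule protein gene. In all, 3 of 8 such copies had a CEBPG peak, which leaves 16 of 77 other genes.

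Among small-subunit genes, Rps3 led with a peak of 315.51 (chr7:99475556-99475954). Its protein sits where messenger RNA enters the ribosome and has also been linked to DNA repair. This peak lay past the end of the gene, 7954 bp downstream of the start and 2141 bp outside the span, and was closer to Klhl35 (1733 bp). Rps24, a gene mutated in Diamond-Blackfan anaemia, had a peak of 100.46 inside the span, 4902 bp from its nearest listed start. No other protein-coding gene lay within 5 kb of it.

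A weaker small-subunit peak was at Rps14 (44.95, 318 bp outside the lower-coordinate end), which has no listed start. Rps14 is the ribosomal gene lost in the 5q deletion syndrome of human bone marrow. The Rps18 peak (43.02) lay 613 bp downstream of the start and 727 bp from Vps52, a vesicle-tethering gene. The Rps15a peak (40.6), the lowest of the 20, lay inside the gene 2318 bp from the start.

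**Figure D3:**
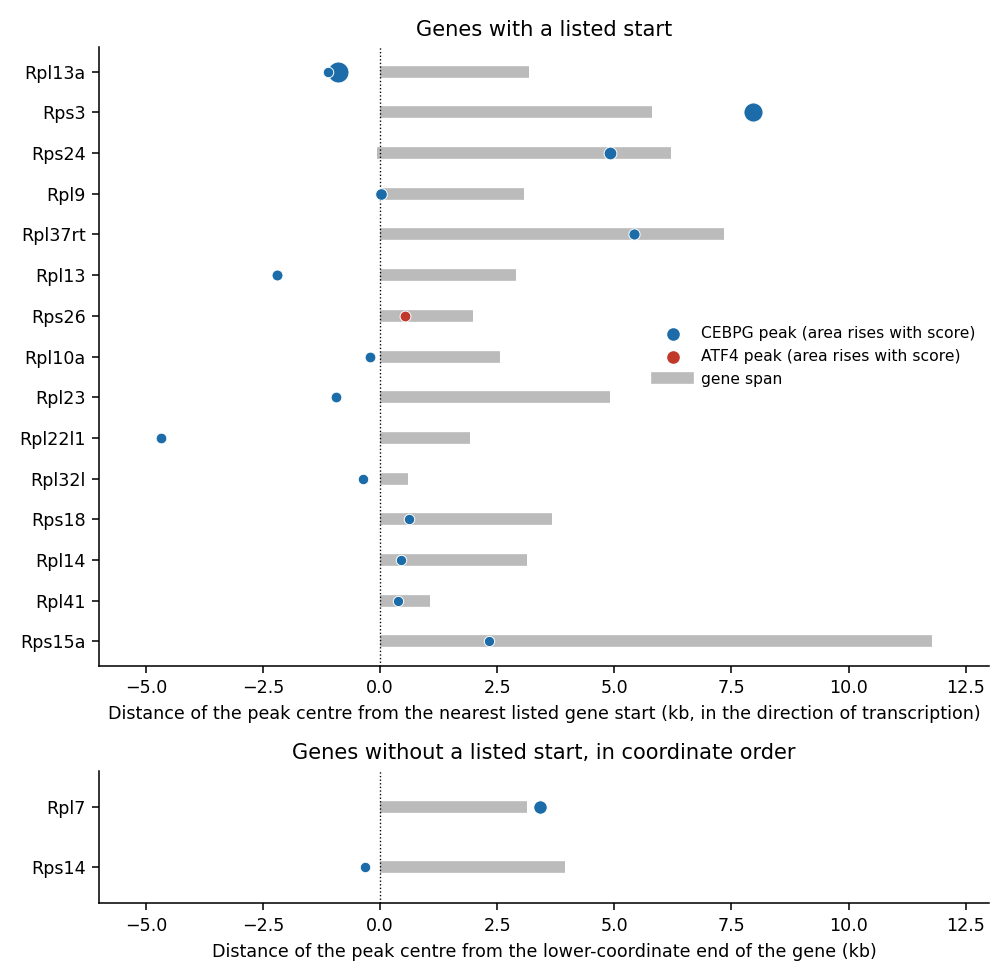
Centres of peaks at ribosomal protein genes, in kb from the nearest listed start in the direction of transcription (top) or, where no start is listed, from the lower-coordinate end (bottom). Grey bars are gene spans, blue points CEBPG peaks, and the red point is the ATF4 peak of Rps26, 524 bp downstream of the start.

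Many of these windows were shared with other genes. Of the 20 CEBPG peaks, 14 also lay within 5 kb of another protein-coding gene, and for 4 of them, those at Rps3, Rpl22l1 and Rpl32l included, that gene was nearer to the peak centre. The same shares for CEBPG peaks near any protein-coding gene are not given here, so these counts are not read as particular to ribosomal protein genes. Assigning each peak to its nearest gene alone left 15 ribosomal protein genes with a CEBPG peak. Many ribosomal protein genes hold small nucleolar RNA genes, which guide ribosomal RNA modification, inside their introns. CEBPG peaks were at 6 of the 30 such hosts (20%) and 13 of the 55 others (23.6%), and 0 of the 20 peaks overlapped a small nucleolar RNA gene. Only 7 of the 20 peaks were centred inside a gene span, and no share over all genes stands beside this 0, so it shows no avoidance.

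The other 66 genes had no CEBPG peak within 5 kb, and 65 had no peak of either factor. Among them were the stalk genes Rplp0, Rplp1 and Rplp2 and the gene of the S6 kinase substrate, Rps6, which are named here after their values were seen. Over the 66, the nearest CEBPG peak lay a median of 62.9 kb from the gene, and up to 472.0 kb away at Rpl36a. It was within 10 kb at 5 of them, Rpl35 (6.33 kb, score 106.73), Rps20 (7.0 kb, 48.67), Rps12 (8.0 kb, 46.79), Rpl21 (9.06 kb, 42.94) and Rpl38 (9.79 kb, 40.85). Over all 85 the median gap was 39.9 kb, against 45.6 kb for genes of the same span range and 28.4 kb for all genes.

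ATF4 had a peak at 1 of the 85 genes (1.18%, 0.208 to 6.367%), against 4.94% of all protein-coding genes and 1.9% of those in the same span range. Within 1 kb of an end the same 1 of 85 stood against 0.708% of all genes. The sign of this difference turned with the window, and a count of 1 gene is too few to read a direction. The gene was Rps26, mutated in some cases of Diamond-Blackfan anaemia, whose protein lines the exit of the messenger RNA channel. The peak (chr10:128625909-128626056, score 51.88) lay inside the gene 524 bp downstream of the start, ranked 694 of 2642 and was 4857 bp from Ikzf4, a transcription factor gene. It overlapped no CEBPG peak, and the nearest one, centred 27.9 kb away, had a score of 41.85. Per 100 kb of window, ATF4 peaks numbered 0.0861 at ribosomal protein genes (exact Poisson interval 0.00218 to 0.48), 0.12 at genes of the same span range and 0.0964 at all genes. A count of 1 cannot separate these values. Within 20 kb of the span, Rpl22 and Rpl5 were added. The first peak (50.28), 11.3 kb from Rpl22 and inside Chd5, overlapped a CEBPG peak of 1034.71, while the second (45.63) lay 14.4 kb from Rpl5 and overlapped none.

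The peaks of both factors did not meet at these genes. Of the 20 CEBPG peaks 0 overlapped an ATF4 peak, which allows a share of up to 15.0% by the limit of 3 counts (16.84% by the exact binomial interval), and the 1 ATF4 peak lay on no CEBPG peak. None of the 19 genes with a CEBPG peak carried an ATF4 peak, against 750 of 6541 (11.5%) over all protein-coding genes and 87 of 1466 (5.93%) in the same span range. Near all genes, 0.161% of CEBPG peaks scored under 100 overlapped an ATF4 peak, as did 3.01% of the 1230 scored from 100 to 400 and 1.87% of all 12249. The scores at ribosomal protein genes stayed below 400, and at these shares 20 peaks are too few to show a difference.

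Promoter sequences were listed for 65 of the 85 genes, as 250 bases before to 50 after the start (RefSeq, GRCm38.p6), and 11 motifs were searched on both strands in the first window of each gene. GABP sites (CCGGAAG), known from ribosomal protein promoters, were in 24 of 65 (36.9%) against 11.9% of 17492 protein-coding promoters. YY1 sites (AAGATGGC) were in 5 (7.69%, against 3.22%), GC boxes (GGGCGG) in 38 (58.5%, against 46.3%) and TATA boxes (TATAAA) in 7 (10.8%, against 13.3%). A start with C and 4 more pyrimidines, as in TOP messages, was present at 14 (21.5%, against 2.17%), and CTTTTC anywhere in the window at 17 (26.2%, against 21.0%). The first count depends on the exact base of each listed start, which was not checked. It is therefore not the share of these genes that make TOP messages. For bZIP factors, the core TGACG was in 31 (47.7%, against 23.8%) and the whole element TGACGTCA, which contains it on both strands, in 5 (7.69%, against 2.34%). The composite pattern TGATGNAA was in 0 of 65 (against 3.69%) and the C/EBP palindrome TTGCGCAA in 0 (against 0.212%). The interval for each, 0 to 5.58%, holds the share over all promoters, so neither 0 shows a lack. The loose C/EBP pattern TTGCNNAA, which includes the palindrome, was in 4, at Rpl10a, Rpl11, Rpl23 and Rpl32l (6.15%, against 10.1%), and AP-1 (TGANTCA) in 2 (3.08%, against 7.08%).

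**Figure D4:**
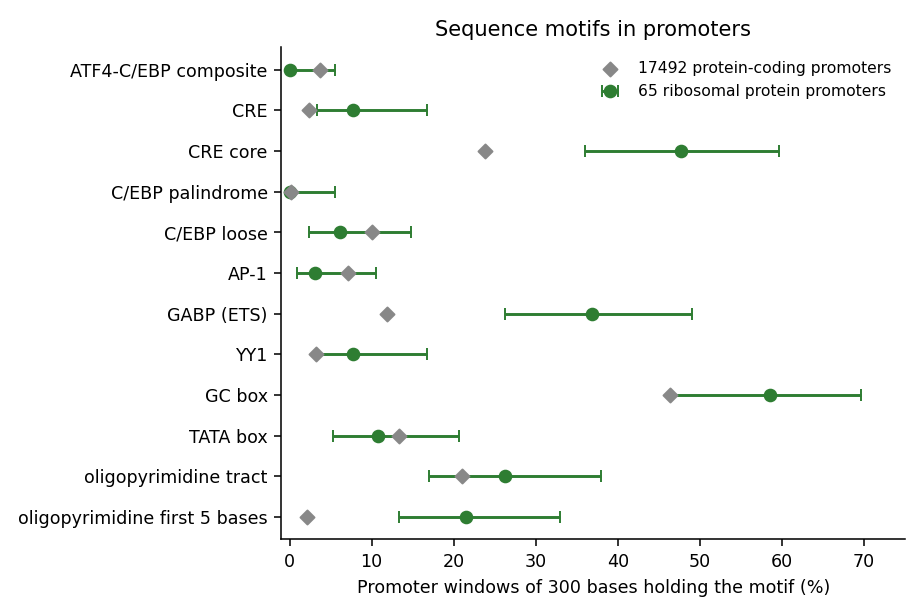
Share of promoter windows of 300 bases that hold each motif, in percent, for 65 ribosomal protein genes (circles, 95% Wilson intervals) and 17492 protein-coding genes (diamonds). The core of the cyclic AMP response element, the GABP site and the pyrimidine start are each more frequent in the ribosomal protein windows. The composite and palindrome patterns are at 0, with intervals that hold the shares over all promoters.

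The 5 promoters with the whole element are shown, and none of them lay under a peak of either list. Each is given 5′ to 3′ on the gene's strand with the element in capitals, and all 5 genes are on the plus strand of GRCm38.p6. They come from chr7:3703973-3704002, chr7:45717981-45718010, chr7:109519087-109519116, chr8:123102315-123102344 and chr11:68901421-68901450, in the order printed.
Rps9: gcggtgcgtgaTGACGTCActacaaggcga
Rpl18: tcgcgctcatgTGACGTCAcccgtgcacca
Rpl27a: gccgggagccgTGACGTCAggagcccttcc
Rpl13: gcgggttcgcgTGACGTCActtccctttcg
Rpl26: cctccgagggaTGACGTCAggacccctcgc
The element began 57 bases before the start at Rps9, 79 at Rpl18, 97 at Rpl27a, 24 at Rpl13 and 134 at Rpl26. Of these genes Rpl13 alone had a CEBPG peak in its window, away from the element, and none had an ATF4 peak. Among the 65 genes with a listed promoter sequence, only Rpl9 and Rpl10a had a promoter under a peak. The absence of peaks on these 5 promoters therefore shows no avoidance of the element. The share of all promoters with the element that lay under a peak was not counted.

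Of 3 genes that encode ribosomal proteins under other names, 0 had a CEBPG peak. Mitochondrial ribosomal protein genes, which serve the separate ribosome of mitochondria, had a CEBPG peak at 18 of 78 (23.1%), led by Mrps18b (160.49), Mrpl1 (111.23), Mrps21 (82.96) and Mrpl54 (79.85), and an ATF4 peak at 1, Mrps31 (40.61). Their share was close to the 22.4% of the cytosolic genes, at a longer median span of 7690 bp. The Mrps18b peak lay inside another gene, Ppp1r10, 2734 bp outside Mrps18b. The Mrpl54 peak also overlapped Apba3.

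Genes that build or regulate the ribosome were counted in the same way, and over all protein-coding genes the shares were 29.9% for CEBPG and 4.94% for ATF4. Of 29 ribosome assembly genes, 8 had a CEBPG peak and 4 an ATF4 peak. Lsg1, a GTPase of late large-subunit assembly, had the highest CEBPG score of that list (239.46), 22 bp upstream of its start, and an ATF4 peak (48.09) 371 bp upstream that did not overlap it. Gnl3, the nucleolar GTPase nucleostemin, had overlapping peaks (48.82 for ATF4, 42.9 for CEBPG), and Wdr12 (42.38) and Nop58 (40.41) had ATF4 peaks away from any CEBPG peak. Among CEBPG peaks of the list, Nop58 (54.37), Bysl (52.96) and Tcof1 (49.43) followed Lsg1. The Bysl peak lay inside Med20 and Gm20517, 1132 bp outside Bysl. For 15 regulators of ribosomal protein production the counts were 8 and 0, with Myc, a driver of ribosome production, at 220.84, Rps6kb2, an S6 kinase gene, at 149.15, Larp1, the TOP message repressor, at 65.6 and Mtor at 52.96. RNA polymerase I genes had 4 of 12 and 0, with Taf1d (59.53), Polr1a (57.32), Taf1b (48.88) and Taf1a (42.23). The elongation list had 3 of 8 and 0, with Eef2k, the kinase that inhibits the factor eEF2, at 105.45 and the factor genes Eef1a1 at 51.44 and Eef2 at 40.48. The counts were 5 of 10 and 0 for other TOP messages (Npm1 88.75, Eif4b 62.29, Eif3e 54.25 and Eif3h 43.4). These genes are mostly longer than the ribosomal protein genes, with median spans from 8510 bp for the elongation list to 28890 bp for the regulators.

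**Figure D5:**
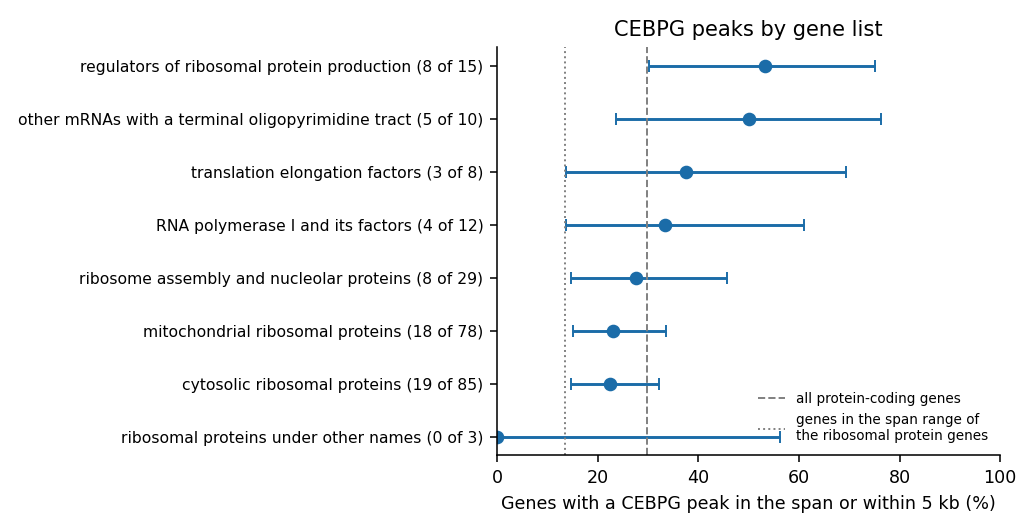
Share of genes with a CEBPG peak in the span or within 5 kb, in percent with 95% Wilson intervals, for the cytosolic ribosomal protein genes and 7 related lists. The dashed line is all protein-coding genes (29.9%) and the dotted line those in the span range of the cytosolic ribosomal protein genes (13.6%).

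Ribosomal protein pseudogenes, the processed copies scattered over the genome, were counted in the same way. Of 318 with a -ps name, 36 had a CEBPG peak (11.3%, against 8.95% of all 10429 pseudogenes) and 2 an ATF4 peak (0.629%, against 1.5%), Rpl31-ps7 and Rpl26-ps2. Reads of 36 bp from exons shared with such copies may not map to 1 place, and the part of this in the counts was not tested.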

How the data were processed

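The 2 deposited peak lists, 1 library each for CEBPG and ATF4, were used. Per the submitters' processing notes, MACS 1.4.2, HOMER, BWA and Trimmomatic were used with mm10; settings are not given in the sources used here, nor whether the GFP library served as background. The score of each peak is the authors' deposited value, read from the last part of the peak name; its scale is not stated, and the depth of the libraries is unknown. Starts were made 1-based. Genes, spans and promoters came from RefSeq tables of GRCm38.p6, the same build; exons were not used, and starts and strands came from the promoter table. A gene carried a peak when at least 1 bp overlapped its span or the 5 kb on either side. Shares have 95% Wilson intervals, also at counts of 0 in the figures. The 0 of 20 CEBPG peaks on an ATF4 peak was given the limit of 3 counts and an exact binomial limit. Python 3.11.15, pandas 2.3.3 and SciPy 1.17.1 were used. On simulated data, 200 of 200 genes with peaks planted inside their windows were recovered, which checks the overlap count alone and not peak detection. The members and lists were chosen with earlier results of these data known. A few single-gene values are not reported here or drawn. Otherwise, named genes were all members with a peak and, per related list, up to 4 with the highest CEBPG score and up to 4 with an ATF4 peak. Alternatives changed the window, the score minimum, the peak width, the assignment to genes, the members, the background genes and the overlap rule.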

Additional observations from a re-analysis of the deposited data

How the results depend on the processing

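Against 19 ribosomal protein genes with a CEBPG peak, 30 had one within 20 kb of the span, 7 within the span alone, 9 at scores of at least 50, 4 at scores of at least 100 and 11 within 1 kb of an end. It was 14 within 1 kb of the span, 15 by nearest gene and 19 both without peaks over 1 kb wide and with 5 kb around each end. For ATF4 the count of 1 became 3 within 20 kb and 0 at scores of at least 100, and was 1 under the other alternatives. The CEBPG share of all protein-coding genes, 29.9%, became 25.2% within 1 kb of the span, 43.7% within 20 kb, 23.4% within the span, 16.5% within 5 kb of an end, 17% at scores of at least 50, 7.24% at 100, 27.5% by nearest gene, 5.56% within 1 kb of an end and 13.6% among genes in the members' span range. The ATF4 share of 4.94% became, in the same order, 4.18%, 7.44%, 3.94%, 2.04%, 1.91%, 0.42%, 4.58%, 0.708% and 1.9%. Whether ribosomal protein genes lay above or below the background for CEBPG changed with these settings: 14 of 85 (16.5%) against 25.2% within 1 kb of the span, but 11 of 85 (12.9%) against 5.56% within 1 kb of an end. For ATF4 it changed too: 1 of 85 (1.18%) against 4.94% in the main window, but 1.18% against 0.708% within 1 kb of an end and against 0.865% of genes in the span range at scores of at least 50. Each of these ATF4 shares rests on 1 gene, too few to read a direction. The 0 of 20 CEBPG peaks on an ATF4 peak was also 0 with centres within 250 bp or with 50% of both peaks overlapping. The alternatives with 1 kb around each end, the span range, and members without retrotransposed copies were chosen after seeing the data. No paired analysis was possible because there was 1 library per antibody. Depth is unknown, so the number of peaks could not be corrected for it.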
